A study of Mus musculus with 2 samples.

Results

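The 8 genes described here are *Cd209a*, *Cd209b*, *Cd209d*, *Cd209f*, *Cd209g*, *Mrc1*, *Clec10a* and *Mgl2*, which code for surface lectins of macrophages and dendritic cells. They were found by symbol, each in exactly 1 of the 55386 rows of both count matrices, and they had been chosen by their measured levels in the cell classes, conditions and *Yfp* groups of these same libraries, so that levels by cell class, by condition and by *Yfp* are given as descriptions with no test. The data are 10x Genomics single-cell RNA counts of CD45+ cells sorted from the aortic adventitia of *RankCreRosa26eYFP* mice of about 16 weeks. In this strain Cre under the *Rank* promoter leaves a permanent yellow fluorescent protein label, which the study used to mark macrophages descended from early erythro-myeloid progenitors. There was 1 library of untreated mice (steady state, 3 pooled animals) and 1 library of mice given angiotensin II at 1.8 µg/kg/min for 10 days (AngII, 2 pooled animals). Age and strain were the same in both. With 1 pooled library a condition there is no spread between animals, and a difference between the libraries cannot be told apart from a difference between these pools, their handling or their depth.

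C-type lectin receptors bind sugars on microbes, glycoproteins and dying cells, and many of them carry their cargo into the cell. The CD209 genes are the mouse relatives of human DC-SIGN and arose by duplication of neighbouring genes. *Mrc1* codes for the mannose receptor CD206, an endocytic receptor that also clears collagen fragments and hormones and that serves as a marker of tissue-resident and alternatively activated macrophages. *Clec10a* and *Mgl2* code for the CD301 lectins, which bind galactose and N-acetylgalactosamine, so that the name mannose-type lectin does not cover them.

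The 5 CD209 members lie on mouse chromosome 8 (GRCm38) with *Cd209c* and *Cd209e*, together 7 genes over 394 kb, in the order *Cd209a*, *Cd209e*, *Cd209d*, *Cd209b*, *Cd209c*, *Cd209f*, *Cd209g*. *Mgl2* and *Clec10a* are neighbours on chromosome 11, 18.6 kb apart, and *Mrc1* is on chromosome 2. RefSeq promoter windows, from 250 bases before to 50 after the start, were matched for 7 of the 8 genes. The windows of *Cd209f* (chr8:4105715-4106014, minus strand) and *Cd209g* (chr8:4134486-4134785, plus strand) are shown because these genes had the highest correlation of any pair of members over single resident macrophages at steady state. The capitals mark the longest run that both windows share without a mismatch.
Cd209f: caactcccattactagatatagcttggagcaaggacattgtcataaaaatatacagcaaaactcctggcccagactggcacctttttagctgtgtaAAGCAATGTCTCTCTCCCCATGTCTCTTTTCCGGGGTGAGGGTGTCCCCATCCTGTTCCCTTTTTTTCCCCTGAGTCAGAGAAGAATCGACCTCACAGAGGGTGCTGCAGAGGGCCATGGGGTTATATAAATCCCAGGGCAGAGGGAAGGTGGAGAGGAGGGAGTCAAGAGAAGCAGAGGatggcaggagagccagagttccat
Cd209g: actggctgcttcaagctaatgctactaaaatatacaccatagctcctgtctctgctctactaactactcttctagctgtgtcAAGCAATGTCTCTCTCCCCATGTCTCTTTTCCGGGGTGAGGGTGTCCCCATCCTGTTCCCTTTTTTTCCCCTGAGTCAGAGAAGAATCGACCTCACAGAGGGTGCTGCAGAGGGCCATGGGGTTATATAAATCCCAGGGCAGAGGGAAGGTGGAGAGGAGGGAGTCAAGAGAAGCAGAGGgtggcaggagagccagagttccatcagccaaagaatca

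The shared run was 180 bases long, and the 2 windows were identical in 81.8% of their aligned columns. Among the other pairs of members the longest shared run was 17 bases (*Cd209a* and *Cd209b*). The letters TGAGTCA, the AP-1 motif, searched on both strands, stood in the *Cd209f* and *Cd209g* windows and in none of the other 5, against 5.20% of the 32851 promoter windows of the same length. Both sites lie inside the shared 180-base run, so they are 1 shared stretch and not 2 separate occurrences to set against that share. The letters GAGGAAGT (PU.1-type, in 3.20% of all windows) and the STAT6 motif with 4 free bases (6.95%), also on both strands, were in none of the 7 windows. The similarity reaches into the transcripts. Of the 91-base windows in the last 500 bases of *Cd209f* transcripts, 28.9% also occur in a *Cd209g* transcript, whereas none of those of *Cd209g* occur in another gene. The count of *Cd209f* relative to that of *Cd209g* is therefore uncertain. For *Clec10a* the share was 5.36% (with *Mgl2*), for *Mgl2* 1.19%, and for the other 4 members 0.

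The files held 346 barcodes and 4009678 unique molecular identifiers (UMIs, counted RNA molecules) at steady state and 4419 barcodes and 20481854 UMIs on AngII. The study's stated limits on genes and mitochondrial reads left 306 and 4198 barcodes, with medians of 9105 and 1092 UMIs, and the libraries shared 0 barcodes. Each barcode was placed in a cell class by marker genes that include no member. Levels are counts of a gene scaled to a fixed total of UMIs (CPM) summed over a class, with 95% exact Poisson intervals that cover counting error only and not the spread between cells or animals. No class could be given to 1468 AngII barcodes (35.0%, median 876 UMIs) and to 8 at steady state. They are not in the levels of any class, and classes under 10 barcodes are not ranked. Macrophages numbered 137 at steady state, of which 89 were resident (marked by *Lyve1*, *Folr2*, *Cd163* and other genes), 41 were of a class marked by *Ear2* and *Retnla*, and 7 were of the remaining class, called other. On AngII there were 1563, of which 309 were resident, 262 *Ear2 Retnla*, 694 other and 298 of a class marked by *Arg1* and *Spp1* that had 0 barcodes at steady state. The *Ear2 Retnla* class was not the same in both libraries, since its *Lyve1* level was 602 CPM at steady state and 59.7 CPM on AngII.

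The CD209 genes divided by cell class. *Cd209b*, *Cd209f* and *Cd209g* were found almost wholly in macrophages, *Cd209a* mainly in dendritic cells, and *Cd209d* in both. At steady state macrophages were 44.8% of barcodes with 50.9% of all UMIs, and held 99.1% of *Cd209b* UMIs, 99.3% of *Cd209f* UMIs and 98.9% of *Cd209g* UMIs. On AngII, where they were 37.2% of barcodes with 37.4% of all UMIs, they held 81.6%, 81.4% and 88.1%. Dendritic cells were 8.17% and 10.0% of barcodes with 15.8% and 20.4% of all UMIs, and held 52.7% and 64.4% of *Cd209a* UMIs.

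**Figure D1:**
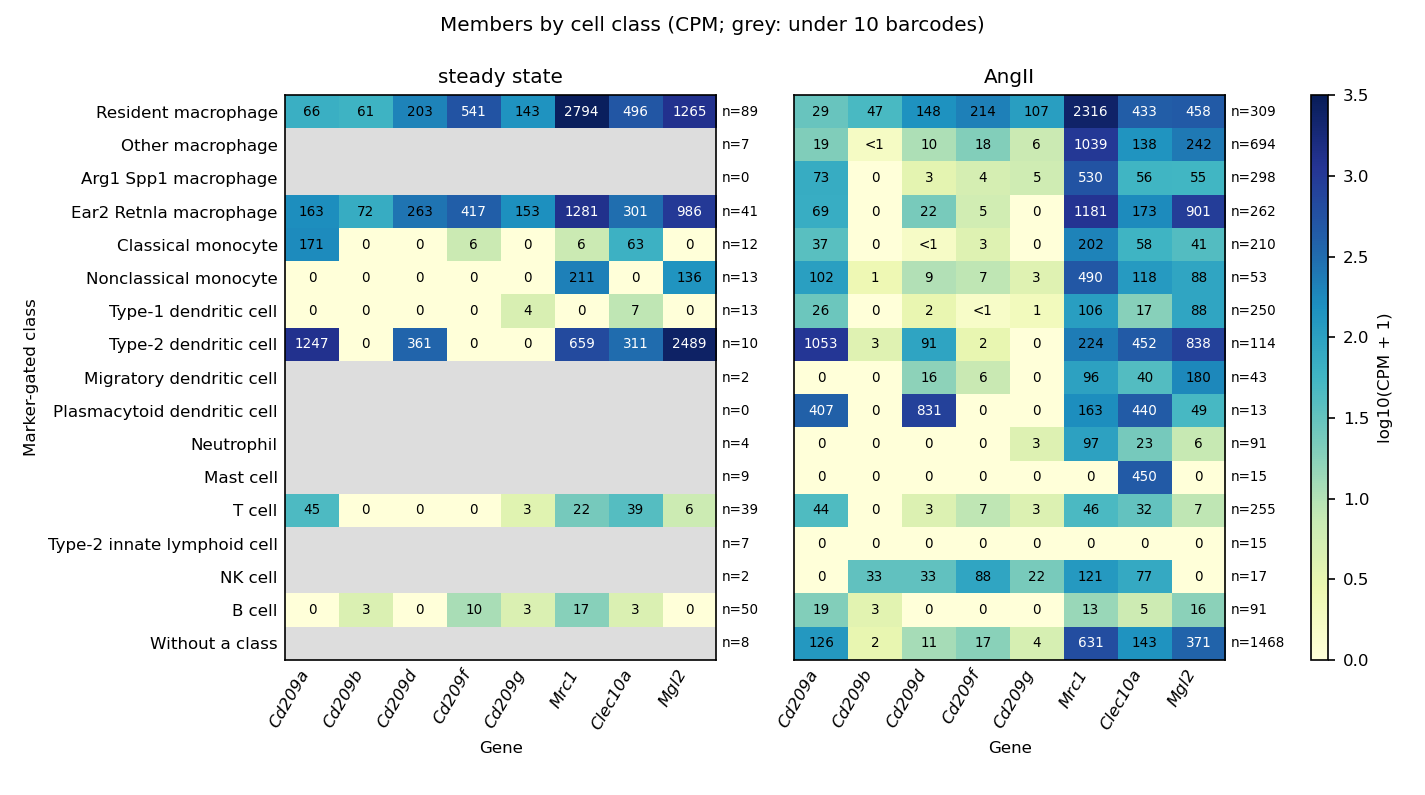
Level of each member (columns) in each marker-gated class (rows) at steady state (left) and on AngII (right), as CPM printed in the cells and coloured on a log10(CPM + 1) scale; n is the number of barcodes and grey rows hold fewer than 10. *Cd209a* was highest in type-2 dendritic cells (1247 and 1053 CPM), whereas *Cd209f* was highest in resident macrophages (541 and 214 CPM).

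*Cd209a*, the member usually called mouse DC-SIGN, reached 1247 CPM (95% interval 1109 to 1397, 10 barcodes) in type-2 dendritic cells at steady state and 1053 CPM (1000 to 1108, 114 barcodes) on AngII. It stood first in both libraries, with intervals clear of the next class, and plasmacytoid dendritic cells followed on AngII at 407 CPM (25 UMIs in 5 of 13 barcodes). All 10 steady-state barcodes of this class held a UMI, and 64 of 114 (56.1%) on AngII. Besides *Cd209a*, the steady-state class was led by genes of the cell cycle such as *Top2a* and *Pclaf*, and held none of its own marker list among its first 10 genes. Of 14 alternative processings, 10 gave a level for it. The next level at steady state, 171 CPM in 12 classical monocytes, came from 30 UMIs in 1 barcode. Resident macrophages had 66.1 CPM at steady state and 28.9 CPM on AngII.

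*Cd209d*, also known as SIGNR3, had no single main class. At steady state it reached 361 CPM (289 to 446) in type-2 dendritic cells, 263 CPM (229 to 300) in *Ear2 Retnla* macrophages and 203 CPM (175 to 234) in resident macrophages. These intervals overlapped from each class to the next, and no *Cd209d* UMI was found in classical or nonclassical monocytes. On AngII the highest level was in plasmacytoid dendritic cells, at 831 CPM (619 to 1093), from 51 UMIs in 4 of 13 barcodes. Resident macrophages followed at 148 CPM and type-2 dendritic cells at 90.5 CPM.

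*Cd209b*, known as SIGNR1 and studied on marginal zone macrophages of the spleen, had 60.8 CPM (46.0 to 78.8) in resident macrophages and 71.7 CPM (54.6 to 92.5) in the *Ear2 Retnla* class at steady state, and these did not differ beyond their intervals. On AngII it had 47.5 CPM in resident macrophages, and 0 UMIs were found in the *Ear2 Retnla* class, which allows up to 3.49 CPM. *Cd209g* followed the same order, with 143 and 153 CPM in the 2 classes at steady state, and 107 and 0 CPM on AngII. *Cd209f* had 541 CPM (495 to 590) in resident and 417 CPM (374 to 463) in *Ear2 Retnla* macrophages at steady state, against 214 CPM (191 to 239) and 4.73 CPM (1.54 to 11.0) on AngII. The UMIs of these genes were concentrated in few barcodes. A UMI was nevertheless found in 54 (*Cd209f*), 45 (*Cd209g*) and 24 (*Cd209b*) of 137 steady-state macrophages. At steady state it took only 8 barcodes to hold 50% of all *Cd209f* UMIs, 8 for *Cd209g* and 5 for *Cd209b*. On AngII the numbers were 10, 7 and 2.

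*Mrc1* was spread far more evenly. The same share of its UMIs took 38 barcodes at steady state and 146 on AngII, and it was found in 88 of 89 resident macrophages at steady state. Its level was highest in resident macrophages in both libraries, at 2794 CPM (2688 to 2903) and 2316 CPM (2238 to 2395), followed by the *Ear2 Retnla* class at 1281 and 1181 CPM. On AngII other macrophages had 1039 CPM and *Arg1 Spp1* macrophages 530 CPM.

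The CD301 genes were shared between macrophages and type-2 dendritic cells. *Mgl2* was first in type-2 dendritic cells at steady state, at 2489 CPM (2293 to 2698), ahead of resident macrophages at 1265 CPM (1194 to 1339). On AngII the *Ear2 Retnla* class had 901 CPM (844 to 960) and type-2 dendritic cells 838 CPM (791 to 887), which did not differ beyond their intervals, and resident macrophages had 458 CPM. *Clec10a* was first in resident macrophages at steady state, at 496 CPM (452 to 543). On AngII the intervals of type-2 dendritic cells (452 CPM), mast cells (450 CPM, from 10 UMIs), plasmacytoid dendritic cells (440 CPM) and resident macrophages (433 CPM) all overlapped.

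Lymphocytes, which should lack these receptors, served as the measure of free RNA. In the 98 steady-state lymphocytes the highest level of a member was 22.4 CPM (*Cd209a*, 16 UMIs in 1 barcode), and in the 378 AngII lymphocytes it was 39.9 CPM (*Mrc1*, with a UMI in 11.6% of barcodes against 84.5% of resident macrophages). Their median depths were 6756.5 and 1552 UMIs, against 9541 and 1416 in resident macrophages. *Cd209a* on AngII had 33.8 CPM in lymphocytes, where 35 of its 61 UMIs lay in 1 barcode, and 28.9 CPM in resident macrophages. A *Cd209a* UMI was found in 2.38% of these lymphocytes and in 4.53% of resident macrophages. Whether its level in resident macrophages is background was not tested. The 8 *Cd209f* UMIs of NK cells on AngII lay in 1 of 17 barcodes. In AngII barcodes without a class the levels ranged from 2.20 CPM (*Cd209b*) to 631 CPM (*Mrc1*), and *Cd209a* had 126 CPM.

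The first comparison was between conditions. Over all macrophages the AngII library had lower levels than the steady-state library for all 8 members, and 7 of the 8 were lower by at least 2-fold, whereas 5.5% of the 9306 genes with 50 or more UMIs were that much lower and 6.44% that much higher. *Cd209f* was at 56.0 against 458 CPM, a ratio of 0.122 (95% interval 0.108 to 0.138), and *Mgl2* at 359 against 1142 CPM, a ratio of 0.314 (0.296 to 0.333). *Mrc1* was the exception, at 1247 against 2020 CPM, a ratio of 0.617 (0.594 to 0.642). The macrophage classes differed in their shares, since resident barcodes were 89 of 137 macrophages at steady state and 309 of 1563 on AngII.

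Within resident macrophages the differences were smaller, and 3 of the 8 members were at least 2-fold lower on AngII, against 4.52% of 6040 genes that much lower and 4.55% that much higher. *Mgl2* was at 458 against 1265 CPM, a ratio of 0.362 (0.329 to 0.399), and *Cd209f* at 214 against 541 CPM, a ratio of 0.396 (0.342 to 0.457). *Cd209a* was the third. Its CPM on AngII did not stand above that of lymphocytes, where 1 barcode held 35 of the 61 UMIs. *Mrc1* (ratio 0.829), *Clec10a* (0.874), *Cd209d* (0.730) and *Cd209g* (0.746) had intervals below 1, and that of *Cd209b* (0.781, 0.542 to 1.13) included 1. The count lay between 1 and 7 of the 8 members over 14 alternatives, 7 with barcodes assigned by Leiden clusters and 1 with barcodes that held lymphocyte and macrophage markers left out. *Mgl2* kept a ratio between 0.243 and 0.391 in all 14, and *Mrc1*, *Clec10a* and *Cd209d* stayed below 1 in all 14. *Cd209b* and *Cd209g* were above 1 in 2 of them each, at up to 1.23 and 1.18. The ratio of *Cd209f* ranged from 0.108 to 1.53, and was 1.53 when every barcode with 2 lymphocyte-marker and 2 macrophage-marker UMIs was left out, which removed 182 of the 306 steady-state barcodes. Resident barcodes were shallower on AngII, with a median of 1416 UMIs against 9541.

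**Figure D2:**
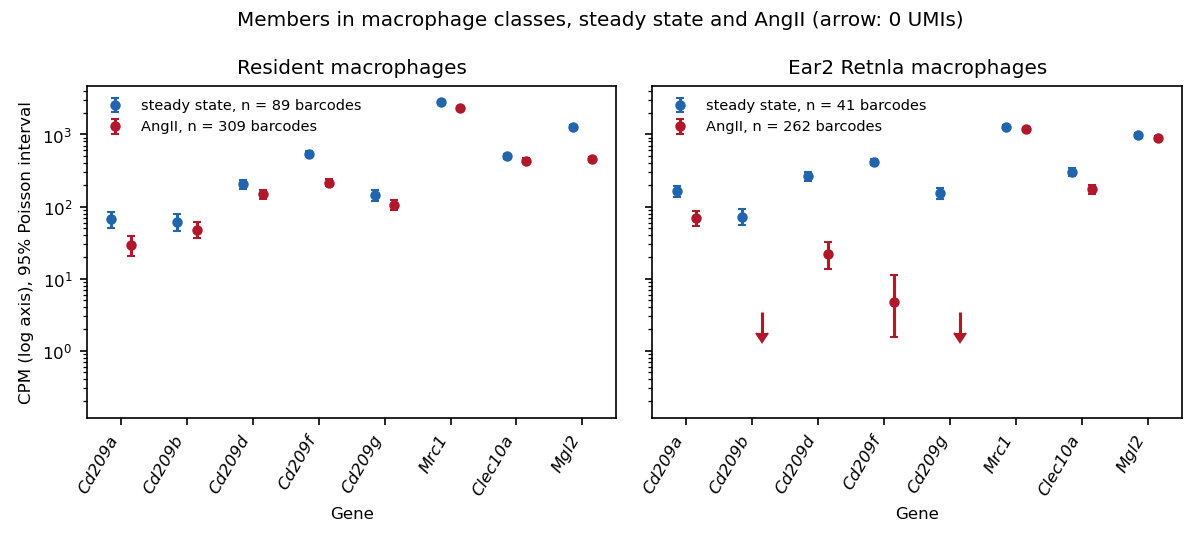
CPM of each member (log axis, 95% Poisson intervals) at steady state (blue) and on AngII (red) in resident macrophages (left) and *Ear2 Retnla* macrophages (right); an arrow marks 0 UMIs and starts at the upper bound. *Mrc1* lies at nearly the same height in both libraries, whereas *Cd209f* in the *Ear2 Retnla* class lies at 417 CPM at steady state and 4.73 CPM on AngII.

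In *Ear2 Retnla* macrophages 5 of the 8 members were at least 2-fold lower on AngII, against 4.57% of 4920 genes that much lower and 4.74% that much higher. All 5 were CD209 genes. *Cd209b* was at least 25.2-fold lower and *Cd209g* at least 53.9-fold lower, both bounds taken at 3 UMIs for the AngII class (the intervals of the ratios reached 0.0503 and 0.0231), and *Cd209f* had a ratio of 0.0114 (0.00366 to 0.0268). The ratios of *Mrc1* (0.922) and *Mgl2* (0.914) had intervals that included 1. *Lyve1*, a marker of the resident list, moved with the CD209 genes in this class, at 602 and 59.7 CPM, and its part in the result was not tested. These folds rest on which barcodes the steady-state class holds, since with Leiden clusters its level was 6.07 CPM for *Cd209b* and 1.52 CPM for *Cd209g*, in place of 71.7 and 153 CPM.

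After thinning each barcode to 1000 UMIs, which left out 1 resident macrophage at steady state and 112 on AngII, a *Cd209f* UMI was found in 20.5% of resident macrophages at steady state and 11.2% on AngII (38.2% and 15.9% before thinning). For *Mgl2* the thinned shares were 61.4% and 22.8%, for *Mrc1* 86.4% and 77.7%, and for *Clec10a* 28.4% and 29.4%. *Mgl2* thus differed both in its CPM and in the share of cells with a UMI, while the share for *Clec10a* hardly differed.

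**Figure D3:**
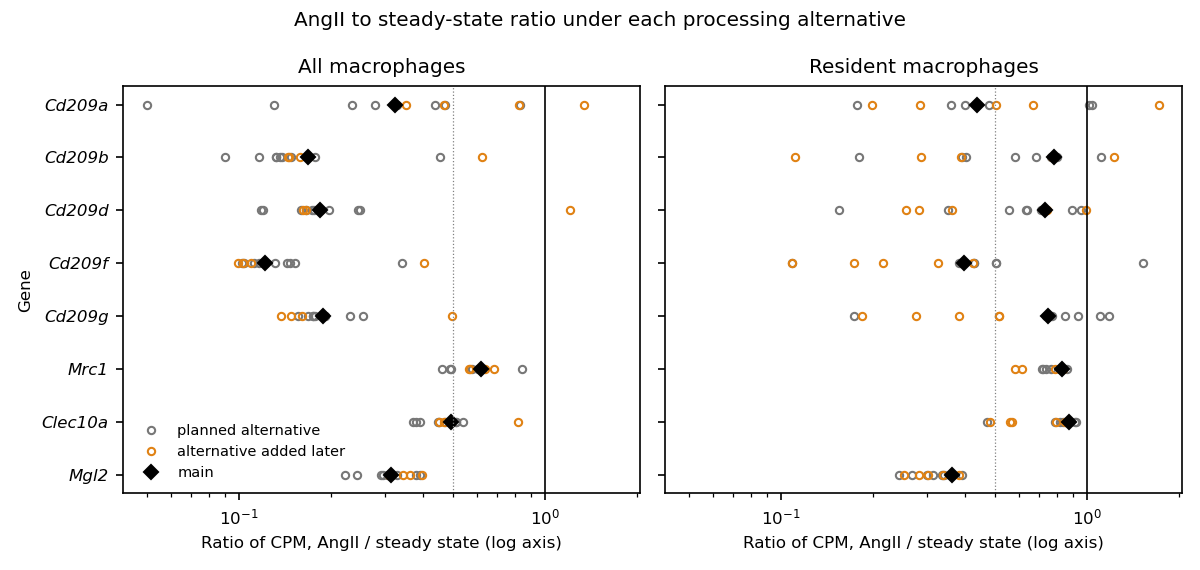
Ratio of CPM, AngII over steady state (log axis), of each member in all macrophages (left) and in resident macrophages (right), under the processing used here (black diamond) and each alternative (open circles, grey for planned ones and orange for those added later). *Mgl2* stays between 0.243 and 0.391 in resident macrophages, whereas *Cd209f* ranges from 0.108 to 1.53.

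The second comparison set resident macrophages against all remaining macrophages of the same library. On AngII 6 of the 8 members were at least 2-fold higher in the resident class, against 3.87% of 8664 genes, and none was 2-fold lower (4.22% of genes). *Cd209f* was at 214 against 12.5 CPM, a ratio of 17.1 (13.1 to 22.7), *Cd209g* at 107 against 4.36 CPM, a ratio of 24.5 (15.7 to 39.7), and *Cd209d* at 148 against 10.6 CPM, a ratio of 13.9 (10.3 to 19.1). *Cd209b*, with 69 UMIs against 2, had a ratio of 125 (33.4 to 1055), or 83.5 with the 2 UMIs set at 3. *Clec10a* (3.43) and *Mrc1* (2.43) completed the 6. *Mgl2* had a ratio of 1.38 and *Cd209a* one of 0.699. The count lay between 4 and 6 over 15 alternatives, but the sizes of the ratios depended on the gate. With the first marker ranking *Cd209d* was at 2.65, *Cd209f* at 2.51 and *Cd209g* at 2.38, and without the second sharing of macrophages *Cd209b* was at 1.19.

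At steady state only *Mrc1* passed a fold of 2 upward, with a ratio of 2.27 (2.12 to 2.44), and only *Cd209a* downward, at 0.382 (0.280 to 0.516), where 8.39% and 4.08% of 5127 genes were higher and lower. The 48 remaining macrophages there were mostly of the *Ear2 Retnla* class that also carried *Lyve1*. When resident macrophages were instead taken as those with at least 1 *Lyve1* UMI, all 8 members were at least 2-fold higher in them. The share of all genes that much higher under this split was not computed, so the 8 cannot be set against it. The count of members therefore rests on where the line between the 2 steady-state classes is drawn.

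**Figure D4:**
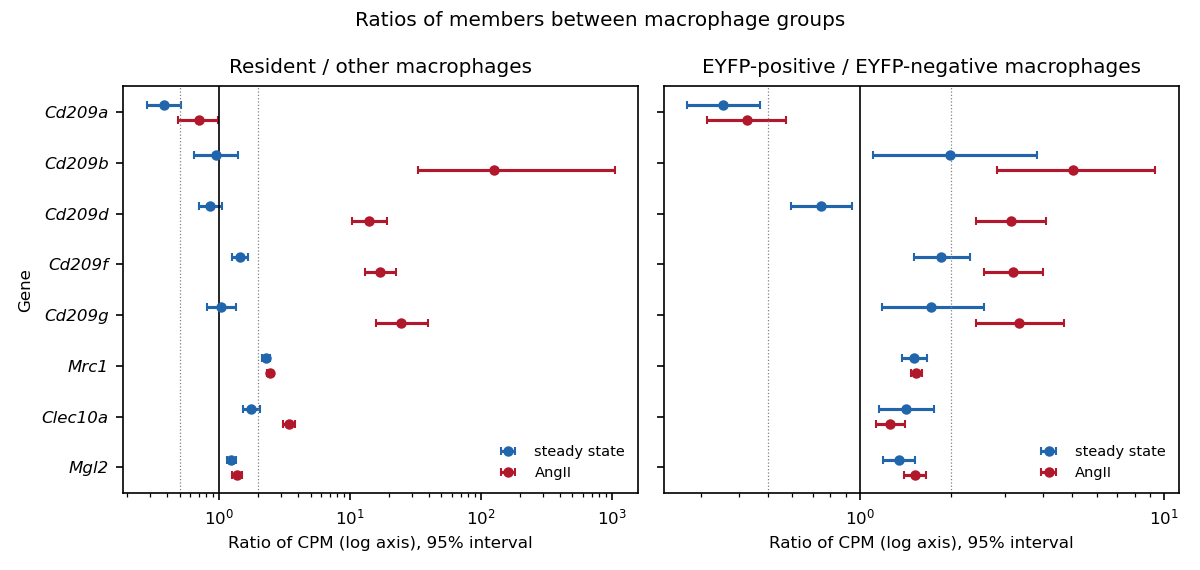
Ratio of CPM with its 95% interval (log axis) for each member, resident over remaining macrophages (left) and *Yfp*+ over *Yfp*− macrophages (right), at steady state (blue) and on AngII (red); dotted lines mark a fold of 2. On AngII *Cd209b*, *Cd209d*, *Cd209f* and *Cd209g* lie right of the dotted line in both panels, whereas at steady state they lie between 0.858 and 1.45 on the left.

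The third comparison was by the lineage label. A *Yfp* UMI was found in 100 of 137 macrophages at steady state (73.0%) and in 272 of 1563 on AngII (17.4%). In lymphocytes the shares were 8.16% and 4.50%. Among them the *Yfp* level in type-2 innate lymphoid cells was 245 CPM at steady state (7 barcodes) and 278 CPM on AngII (15 barcodes). It was 8.40 and 5.70 CPM in T cells, 0 and 8.01 CPM in B cells, and 0 and 21.9 CPM in NK cells. The lymphocyte shares are therefore not read as free RNA. None of these shares of macrophages and lymphocytes is thinned. The median depths of all macrophages were 10720 and 1145 UMIs, so their difference between the libraries cannot be told apart from depth. After the thinning described above, the macrophage shares were 14.1% (8.69 to 21.1) at steady state and 10.6% (8.66 to 12.9) on AngII. In resident macrophages the thinned shares were 15.9% and 16.8%. *Yfp*+ macrophages were deeper, with medians of 6705 against 996 UMIs on AngII and 11431.5 against 7453 at steady state. On AngII 4 of the 8 members were at least 2-fold higher in *Yfp*+ macrophages, against 0.946% of genes, and 1 was that much lower, against 1.45%. The 4 were *Cd209b* (20.1 against 4.01 CPM, ratio 5.01), *Cd209g* (45.3 against 13.5 CPM, ratio 3.34), *Cd209f* (94.5 against 29.6 CPM, ratio 3.20) and *Cd209d* (67.5 against 21.6 CPM, ratio 3.13). *Mrc1* had a ratio of 1.54 and *Mgl2* one of 1.52, and the lower member was *Cd209a* at 0.427. Its levels, 21.5 against 50.4 CPM, lay around the 33.8 CPM of lymphocytes, where 1 barcode held 35 of the 61 UMIs. The *Cd209a* ratio was above 1 in 5 of 18 alternatives.

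These ratios came from few and deep barcodes. A *Cd209f* UMI was found in 24 of 272 *Yfp*+ and 71 of 1291 *Yfp*− macrophages on AngII, 8.82% and 5.50%, and after thinning to 1000 UMIs the shares were 5.17% and 4.51%. When each barcode was given the same weight the ratio of *Cd209f* was 1.09 and no member reached 2. Ratios taken within the macrophage classes and pooled left 1 member at 2 or more, *Cd209b* at 2.28.

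At steady state no member was 2-fold higher in *Yfp*+ macrophages (4.35% of 5127 genes were) and *Cd209a* was 2-fold lower (1.58% were). *Cd209b* came closest, with 69.3 against 35.1 CPM, a ratio of 1.98 (1.11 to 3.84). *Cd209f* had 505 against 272 CPM, a ratio of 1.85, *Mrc1* 2167 against 1432 CPM, a ratio of 1.51 (1.38 to 1.66), and *Cd209d* 205 against 275 CPM, a ratio of 0.746 (0.594 to 0.943). Within resident macrophages alone *Mrc1* was at 2792 CPM in 68 *Yfp*+ and 2808 CPM in 21 *Yfp*− barcodes, a ratio of 0.994 (0.892 to 1.11), *Cd209f* had a ratio of 0.776 (0.617 to 0.984) and *Cd209b* one of 0.636 (0.331 to 1.32). There 2 of the 8 members, *Cd209a* and *Cd209d*, were 2-fold lower in *Yfp*+ cells (1.72% of 3136 genes) and none was 2-fold higher (6.79%). In resident macrophages on AngII, 7 members passed 50 UMIs, and *Cd209b*, *Cd209d*, *Cd209f*, *Cd209g* and *Mgl2* were 2-fold higher in 92 *Yfp*+ than in 217 *Yfp*− barcodes (0.925% of 4431 genes), with none 2-fold lower (0.79%). The median depths of these barcodes were 7467.5 and 1045 UMIs. The ratios within this class were not recomputed after thinning or with equal weight per barcode.

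*Cd209f*, *Cd209g* and *Cd209d* were found in the same cells. At steady state 34 of 89 resident macrophages held *Cd209f*, and of these 25 (73.5%) also held *Cd209g* and 19 (55.9%) *Cd209d*, against 5.45% and 7.27% of the resident macrophages without *Cd209f*. The median depth was 9622.5 UMIs with and 9264 without *Cd209f*. On AngII 49 of 309 held *Cd209f*, and of these 53.1% held *Cd209g* and 59.2% *Cd209d*, against 4.62% and 3.85% of the rest, at median depths of 1721 and 1375 UMIs. All 4 of *Cd209b*, *Cd209d*, *Cd209f* and *Cd209g* were found in 7 of 89 resident macrophages at steady state and in 8 of 309 on AngII, whereas none of the 4 was found in 47 (52.8%) and 238 (77.0%). These counts are not thinned. With medians of 9541 and 1416 UMIs, a difference between the libraries here cannot be told apart from depth. Over the 89 single barcodes the correlation of *Cd209f* with *Cd209g* was 0.83, of *Cd209f* with *Cd209d* 0.71 and of *Cd209f* with *Mrc1* 0.38, as Pearson's r of log2-scaled CPM per barcode. These barcodes share a library and its counting noise. Of the *Cd209f* end windows, 28.9% also occur in a *Cd209g* transcript, and the effect of this on the correlation was not tested. In type-2 dendritic cells on AngII, *Clec10a* was found in 53 of the 64 barcodes with *Cd209a* (82.8%) and in 28.0% of those without, where the median depths were 16484 and 2452 UMIs.

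**Figure D5:**
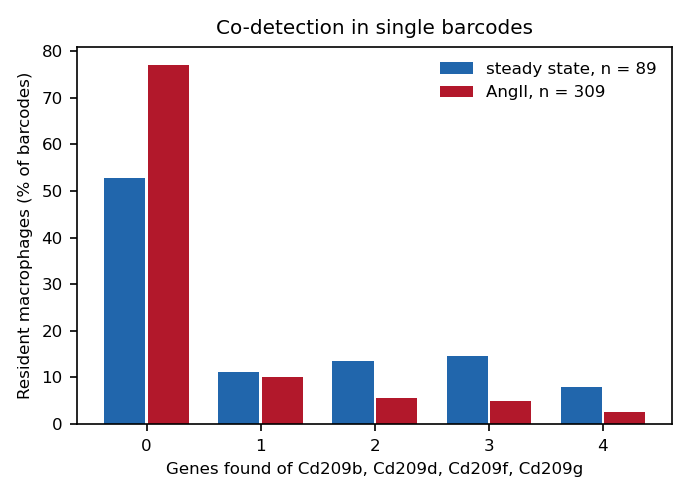
Percent of resident macrophages (y axis, bars from 0) in which 0 to 4 of *Cd209b*, *Cd209d*, *Cd209f* and *Cd209g* were found (x axis), at steady state (blue, 89 barcodes) and on AngII (red, 309 barcodes). None of the 4 was found in 52.8% and 77.0% of barcodes, and all 4 in 7.87% and 2.59%. The counts are not thinned, and the median depths were 9541 and 1416 UMIs.

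The genes most alike to each member were ranked by Pearson's r of log2(CPM + 20) over the 16 pairs of class and library with at least 20 barcodes, among 10121 genes. *Cd209g*, *C1qtnf1* and *Cd209f* were most like *Cd209b* (r from 0.98 to 0.99), and *C1qtnf1* also led for *Cd209f* and *Cd209g*, at 0.99 for both. For *Mrc1* the leading genes were *Dhrs3*, *Cmtm3* and *Adam15* (0.98), for *Mgl2* *Tspan17* (0.93), for *Clec10a* *Hs6st1* (0.91) and for *Cd209a* *Lta4h* (0.85), which makes leukotriene B4. Pairs with few marked classes give a high r from 1 or 2 points, and the values are a description.

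Of 13 further lectin receptors listed by family, 12 were matched and 2 had 50 or more UMIs in the comparison of conditions. *Colec12*, a scavenger receptor with a collagen stalk and a lectin domain, was at 29.6 against 141 CPM in resident macrophages on AngII and at steady state (ratio 0.210), and *Cd302* at 255 against 227 CPM (1.12). Of 6 genes of type-2 macrophage activation, 5 had enough UMIs in resident macrophages, and 1 was 2-fold higher on AngII and 1 lower. *Il4ra*, the receptor chain shared by interleukins 4 and 13, was at 397 against 76.8 CPM (ratio 5.17) and *Klf4*, a transcription factor, at 698 against 1759 CPM (ratio 0.397). *Stat6*, which acts downstream of that receptor, was at 89.4 against 89.6 CPM. *Irf4*, also a transcription factor, had a ratio of 0.586 there and was 2-fold lower over all macrophages (0.317), where *Il4ra* was again higher (4.16) and *Klf4* lower (0.336). *Il13ra1*, a receptor chain for interleukin 13, had a ratio of 0.929, and *Pparg* had 7 and 3 UMIs.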

How the data were processed

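The authors sorted live CD45+ adventitial cells, made 10x 3′ (v3.1) libraries, and mapped reads with Cell Ranger 3.1.0 to GRCm38.p6 with the eYFP sequence added. The deposited matrices hold raw UMI counts per gene and barcode, and the authors pooled animals within each library with no map from barcodes to animals. The study's stated limits (300 to 6500 genes, at most 5% mitochondrial UMIs) were applied here. The study gives 346 and 4419 cells, which are the deposited barcodes, and these limits left 306 and 4198. No doublet caller was run.

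Barcodes were classed with 20 marker lists, of which 16 were used and which hold 0 of the members. Up to 20 exemplar barcodes per class gave a profile (10 CPM added), each barcode went to the class of highest Poisson likelihood, and macrophages were shared out again over at most 30 rounds. A barcode needed 2 UMIs of 2 marker genes. The members and lists were chosen with earlier results of these data known. This gate was settled after other versions had been run with member values in view, and was kept for the leading genes of its classes. The other versions are alternatives. Leiden clusters were named by a Poisson likelihood ratio after naming by mean fold had called steady-state macrophages smooth muscle, and the first naming is also kept as an alternative.

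Levels are CPM of summed counts with exact Poisson intervals, ratios have exact conditional binomial intervals, and shares have Clopper-Pearson intervals, all at 95% and for counting error only. With 1 library a condition no test was made. A gene with 50 or more UMIs was called at a ratio of 2 or more, or 0.5 or less, and in a ratio a level of 0 was bounded at 3 UMIs. Shares were compared across depths after thinning to 1000 UMIs. All 8 members, related lectins with 100 or more UMIs in a library, and 6 type-2 activation genes were named. *Yfp*+ means 1 or more eYFP UMIs. Scripts were tested on simulated data. Python 3.11.15, numpy 2.4.6, scipy 1.17.1, pandas 2.3.3, scanpy 1.11.5 and matplotlib 3.10.9 were used.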

Additional observations from a re-analysis of the deposited data

Results flagged for a closer look

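Barcodes outside the limits on genes and mitochondrial reads, 40 at steady state and 221 on AngII, enter no comparison, and in both libraries they held every member above its level in lymphocytes. For *Cd209b* on AngII the levels, 2.83 CPM (1.14 to 5.83) against 2.22 CPM (0.604 to 5.67) in lymphocytes, did not differ beyond their intervals. At steady state *Mrc1* was at 1841 CPM, *Mgl2* at 664 CPM, *Clec10a* at 547 CPM, *Cd209f* at 348 CPM, *Cd209a* at 207 CPM, *Cd209d* at 202 CPM, *Cd209b* at 113 CPM and *Cd209g* at 80.2 CPM. On AngII *Mrc1* was at 1055 CPM, *Mgl2* at 540.2 CPM, *Clec10a* at 173 CPM, *Cd209a* at 86.5 CPM, *Cd209d* at 44.1 CPM, *Cd209f* at 32.3 CPM, *Cd209g* at 14.96 CPM and *Cd209b* at 2.83 CPM.

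The ratio of *Cd209d* in *Yfp*+ over *Yfp*− macrophages lay on opposite sides of 1 in the libraries, at 0.746 at steady state and 3.13 on AngII. The difference was not tested.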

How the results depend on the processing

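Of 123 recomputed counts of members 91 stayed within 1.5 times the value reported, whereas 360 of 758 member ratios and 108 of 210 member levels moved outside their counting intervals. The share of all genes was not recomputed for the alternatives. The all-macrophage count of 7 members lower on AngII was 3 with Leiden clusters named by mean fold. The resident count of 3 was 7 with Leiden clusters, 1 without barcodes holding lymphocyte and myeloid markers (182 of 306 and 990 of 4198 left out), and 6 with the first marker ranking, without the second sharing of macrophages, or with the marker minimum set first. The steady-state *Yfp* count of 0 was 1 with Leiden clusters, without barcodes meeting a lymphocyte and a macrophage minimum, after thinning to 1000 UMIs or with lymphocyte CPM subtracted. It was 2 with the first ranking, or when the barcode with the most UMIs of each member was left out of each group. It was 4 with macrophages taken by *Adgre1* and *Itgam*, and 6 with mean-fold naming. The AngII *Yfp* count of 4 was 2 after thinning to 1000 or 500 UMIs, 0 with equal weight per barcode and 1 within classes. The steady-state resident count of 1 was 2 with all barcodes, without lymphocyte and myeloid markers or with the first ranking, 6 with Leiden clusters, 4 with mean-fold naming, 5 without the second sharing, 8 by *Lyve1*, and 0 after thinning to 500 UMIs or with equal weights. Members highest in a macrophage class, 5 in each library, were 8 at steady state with Leiden clusters, the first ranking or no lymphocyte and myeloid markers, 1 with mean-fold naming, and 3 on AngII with the minimum set first. Over the 48 member ratios 25 had at least 1 alternative on the other side of 1. Among members called at 2-fold this happened 15 times. For AngII over steady state these were, with mean-fold naming, *Cd209a* (1.34) and *Cd209d* (1.21) in all macrophages and *Cd209a* (1.71) in resident ones; without lymphocyte and myeloid markers, *Cd209a* (1.02) and *Cd209f* (1.53) in resident ones; and after thinning to 1000 UMIs, *Cd209a* (1.04). For resident over remaining macrophages at steady state, *Cd209a* was 2.54 with Leiden clusters and 2.19 by *Lyve1*. For *Yfp* on AngII, *Cd209a* was 1.12 without lymphocyte and myeloid markers, 1.25 and 1.58 after thinning to 1000 and 500 UMIs, 1.06 with equal weights and 1.01 with the first ranking, and thinning to 500 UMIs gave *Cd209d* 0.982 and *Cd209f* 0.563. The cause of these shifts was not tested. Other gates, the mean-fold naming and the stricter doublet setting were chosen after seeing the data. No paired analysis was possible because each group was 1 library.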
